A study of Mus musculus with 16 samples.

Results

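The genes of excitation-contraction coupling in skeletal muscle were examined in aged mice with and without ATF4 in muscle fibres. The set holds 10 genes, chosen by symbol: Cacna1s, Cacnb1, Cacng1 and Stac3 of the voltage sensor complex, Ryr1 and Fkbp1a of the calcium release channel, Casq1 and Trdn of the calcium store, and Jph1 and Jph2, which tether the membranes. Every probe that the annotation names for one of them was taken, which gave 14 of 25697 probes on the array and 9 of the 10 genes, among 16593 genes with a named probe. Cacna1s, the pore and voltage sensor itself, has no probe named for it in that annotation, so its mRNA was not analysed here. Of the 14 probes, 12 had a mean log2 signal of 8.5 or more and covered 8 genes, and 2 lay below, near the floor of about 8.3 that all arrays share.

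RNA came from the quadriceps femoris of 16 male mice at 22 months of age, 1 bead array per mouse. The ATF4 mKO group held 8 mice of the genotype ATF4(L/L);MCK-Cre(Tg/0), whose Cre is driven by the muscle creatine kinase promoter, so that the deletion is directed to fibres of skeletal muscle and to the heart. The control group held 8 littermates, ATF4(L/L);MCK-Cre(0/0), homozygous for the floxed gene like the ATF4 mKO mice. Since only the ATF4 mKO mice have Cre, the transgene and the loss of ATF4 cannot be told apart. Values are log2 signals as deposited, and a difference is ATF4 mKO minus control.

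In a resting muscle fibre, calcium is held in the sarcoplasmic reticulum. An action potential enters the fibre along the transverse tubules, where the dihydropyridine receptor (a voltage-gated calcium channel with Cacna1s as its pore subunit) senses the change of voltage and, by direct contact, opens the ryanodine receptor Ryr1 in the facing store membrane. The released calcium starts contraction and is pumped back. Tubule and store meet at triads, held together by junctophilins. ATF4, a transcription factor made when cells are under stress, activates genes of amino acid supply and of aminoacyl-tRNA synthesis.

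The genotype labels were checked on Atf4 itself. Its signal was 8.44, 8.52 and 8.61 (lowest, median and highest) in ATF4 mKO mice and 10.26, 10.51 and 10.57 in control mice, with no overlap. The difference was -1.93 ± 0.04 (S.E.; limma, adjusted p = 1.26e-13). The arrays correlated between 0.994 and 0.998. Control mice 3 and 7 lay apart from the other control mice on the principal components, and ATF4 mKO mice 5 and 8 lay at one end of the first component. The 11 measured contractile genes of fast fibres, which define this muscle, averaged 14.13 ± 0.04 in ATF4 mKO mice and 14.13 ± 0.06 in control mice (SD, n = 8 each). In whole muscle, fewer cells of a type and less RNA per cell cannot be told apart.

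No mRNA of the set passed the test for a difference between genotypes. With limma and adjustment over all 25697 probes, 0 of the 14 probes passed the threshold (an adjusted p of 0.1), against 0.136% of all probes, of which 0.0389% were higher and 0.0973% lower in ATF4 mKO mice. At an unadjusted p below 0.05 the count was also 0 of 14, by limma and by the methods' t-test, against 5.62% of all probes by limma and 8.42% of the probes with a mean of 8.5 or more. The genotypes overlapped at all 14 probes, where 0.101% of all probes did not overlap. By the brightest probe, 6 of 9 genes, Trdn at the floor among them, were higher and 3 lower in ATF4 mKO mice. Over all 16593 genes, 8525 were higher and 8068 lower. The median difference of the 9 genes was 0.00126, beside 0.000468 over all probes. The size of the differences was ordinary for the array. The median absolute difference was 0.0290 over the 12 probes of 8.5 or more and 0.0254 over all 8811 probes of that brightness, and 16.2% of those 8811 moved further than the 0.06 of Cacnb1, which no coupling gene exceeded with all 16 arrays in the fit. These p-values do not show that the levels were equal, and 95% intervals are given below for the genes above the floor. The order of the genes by size is not firm: without control mice 3 and 7, Cacnb1 gave 0.02 and Jph1 0.06.

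**Figure D1:**
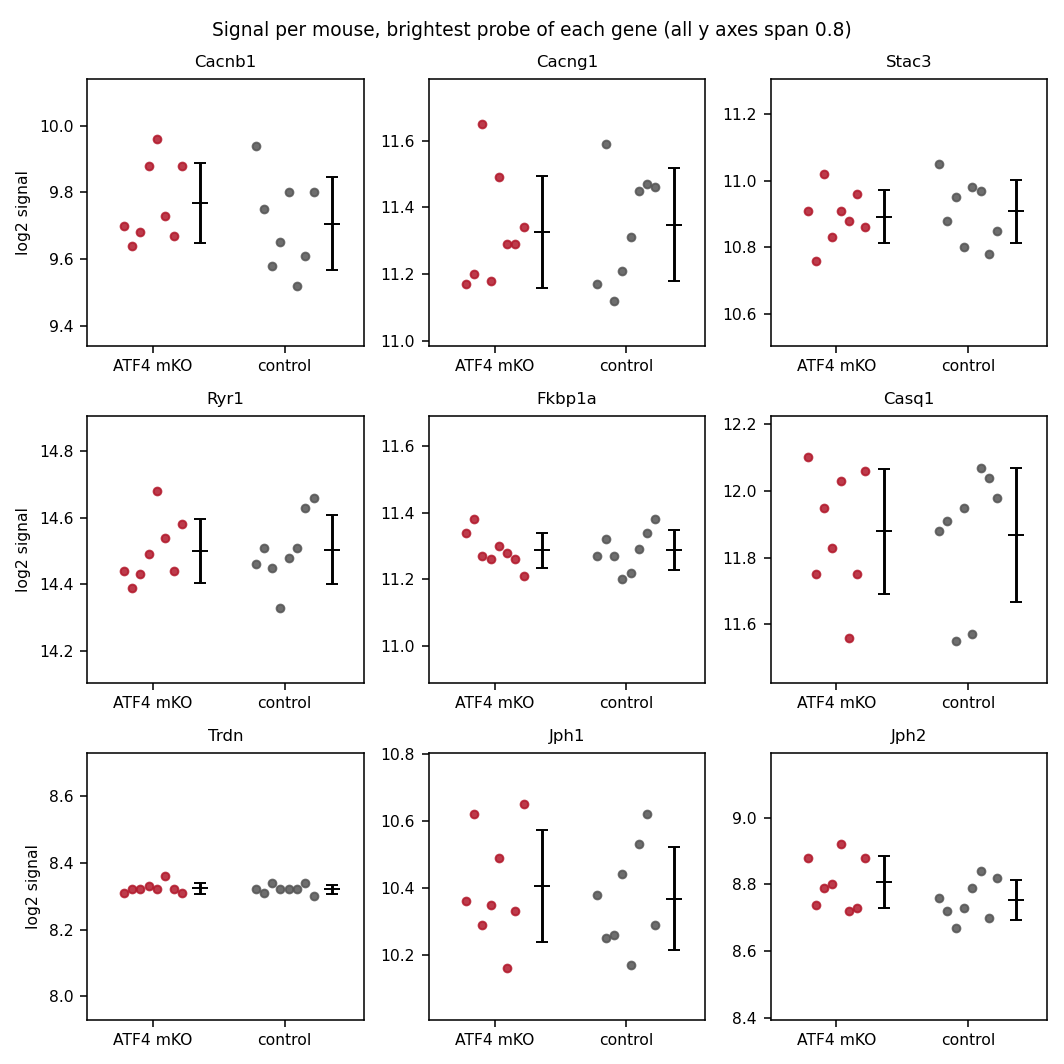
Log2 signal of each mouse at the brightest probe of each of the 9 measured genes, ATF4 mKO (red) left of control (grey), with the mean and SD beside each group (n = 8). All axes span 0.8, and the groups overlap in every panel; the Trdn values lie at the floor of the arrays.

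The voltage sensor complex was represented by its auxiliary subunits and by Stac3. Cacnb1 encodes the beta subunit, which is needed for the placement of the channel at the triad. Its brighter probe read 9.64, 9.71 and 9.96 (lowest, median and highest) in ATF4 mKO mice and 9.52, 9.70 and 9.94 in control mice. The ranges overlapped almost entirely, and 4 of 8 ATF4 mKO mice lay above the control mean. The mean was 9.77 ± 0.12 in ATF4 mKO mice and 9.71 ± 0.14 in control mice (SD, n = 8 each), a difference of 0.06 ± 0.06 (S.E.; 95% interval -0.07 to 0.19; limma, adjusted p = 0.953). A second Cacnb1 probe lay below 8.5, at 8.40 to 8.44 in ATF4 mKO mice and 8.38 to 8.45 in control mice, where changes are compressed.

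Cacng1 encodes the gamma subunit of the skeletal muscle channel. It read 11.17, 11.29 and 11.65 in ATF4 mKO mice and 11.12, 11.38 and 11.59 in control mice. In each genotype 1 mouse stood high, ATF4 mKO mouse 3 and control mouse 2. The difference was -0.02 ± 0.08 (S.E.; 95% interval -0.19 to 0.14; adjusted p = 0.995), and 2 of 8 ATF4 mKO mice lay above the control mean. Stac3, an adaptor that the channel needs in order to couple to the release channel, varied less, from 10.76 to 11.02 in ATF4 mKO mice and from 10.78 to 11.05 in control mice. Its median was 10.90 in ATF4 mKO mice and 10.91 in control mice, and its difference was -0.02 ± 0.04 (S.E.; 95% interval -0.10 to 0.07; adjusted p = 0.989).

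The release channel was measured by 4 probes of Ryr1, the most of any gene in the set. At the brightest, the signal was 14.39, 14.46 and 14.68 in ATF4 mKO mice and 14.33, 14.50 and 14.66 in control mice. ATF4 mKO mouse 5 and control mouse 8 were the highest of their groups, and the ranges covered each other. Both means were 14.50 with an SD of 0.10, and the difference was -0.00614 ± 0.05 (S.E.; 95% interval -0.11 to 0.09; limma, adjusted p = 0.998). In linear terms, that interval runs from 0.929-fold to 1.07-fold. The highest value on any array was 15.401, so this probe lay near the top of the scale.

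The other Ryr1 probes gave differences of both signs. They were 0.03 ± 0.04 at a mean near 14.3, 0.00645 ± 0.05 at a mean near 13.2 and -0.04 ± 0.06 (S.E.) at a mean near 9.7, with adjusted p between 0.961 and 0.998. At the faintest of the 4, ATF4 mKO mouse 1 read 9.46 and the next mouse of its group 9.70. The agreement between probes of a gene was tested as well. Over the 12 relations between Ryr1 probes and the 2 between Jph2 probes, each within 1 genotype (n = 8), Pearson's r ran from 0.10 to 0.84, and 0 of 14 passed at an adjusted p of 0.05 by the exact permutation test. The highest r, between the faintest Ryr1 probe and the one near 14.3 in ATF4 mKO mice (rho = 0.83, p = 0.0173, adjusted p = 0.243), became 0.40 without the 2 farthest mice.

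Fkbp1a encodes FKBP12, a small protein that binds the release channel and steadies its closed state. It varied least between mice among the 8 genes above the floor. It read 11.21, 11.27 and 11.38 in ATF4 mKO mice and 11.20, 11.28 and 11.38 in control mice. The difference was 0.000114 ± 0.03 (S.E.; 95% interval -0.06 to 0.06; adjusted p = 1.00), and the interval in linear terms, 0.961-fold to 1.04-fold, was the narrowest among the 8 genes above the floor.

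Casq1 encodes calsequestrin, the protein that binds calcium inside the store of fast fibres. It read 11.56, 11.89 and 12.10 in ATF4 mKO mice and 11.55, 11.93 and 12.07 in control mice. The low values came from ATF4 mKO mouse 6 and from control mice 3 (11.55) and 5 (11.57), so both genotypes had mice at either end. The difference was 0.01 ± 0.09 (S.E.; 95% interval -0.18 to 0.21; limma, adjusted p = 0.998). Casq1 was the most variable gene of the set, and 3.19% of the probes of 8.5 or more had a larger SD within genotypes. A call would have needed a difference of 0.456, more than at any other probe of the set above the floor.

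Trdn encodes triadin, which links calsequestrin to the release channel. Its probe read 8.31 to 8.36 in ATF4 mKO mice and 8.30 to 8.34 in control mice, at the floor of the arrays. A signal at the floor cannot show a fall, and the difference of 0.00126 therefore says nothing about a change of Trdn.

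The junctophilins tether tubule and store. Jph1, the form of skeletal muscle, read 10.16, 10.35 and 10.65 in ATF4 mKO mice and 10.17, 10.34 and 10.62 in control mice, with nearly equal ranges. Its difference was 0.04 ± 0.08 (S.E.; 95% interval -0.12 to 0.20; adjusted p = 0.986). Jph2, shared with heart, was the gene nearest to a difference. Its brighter probe read 8.72, 8.79 and 8.92 in ATF4 mKO mice and 8.67, 8.74 and 8.84 in control mice, and its other probe 8.66, 8.70 and 8.81 in ATF4 mKO mice and 8.58, 8.63 and 8.79 in control mice. The groups overlapped at both. Their means, 8.78 and 8.68, lay close to the floor, where changes are compressed, so the intervals below bound the signal rather than the mRNA. The differences were 0.05 ± 0.03 (S.E.; 95% interval -0.02 to 0.12; adjusted p = 0.906) and 0.06 ± 0.03 (95% interval -0.01 to 0.12; adjusted p = 0.894), and at the second all 8 ATF4 mKO mice lay above the control mean. Two-sided exact permutation tests at the brightest probe of each gene gave p between 0.153 (Jph2) and 0.997 (Fkbp1a), where 12870 arrangements allow 0.000155 at the lowest.

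**Figure D2:**
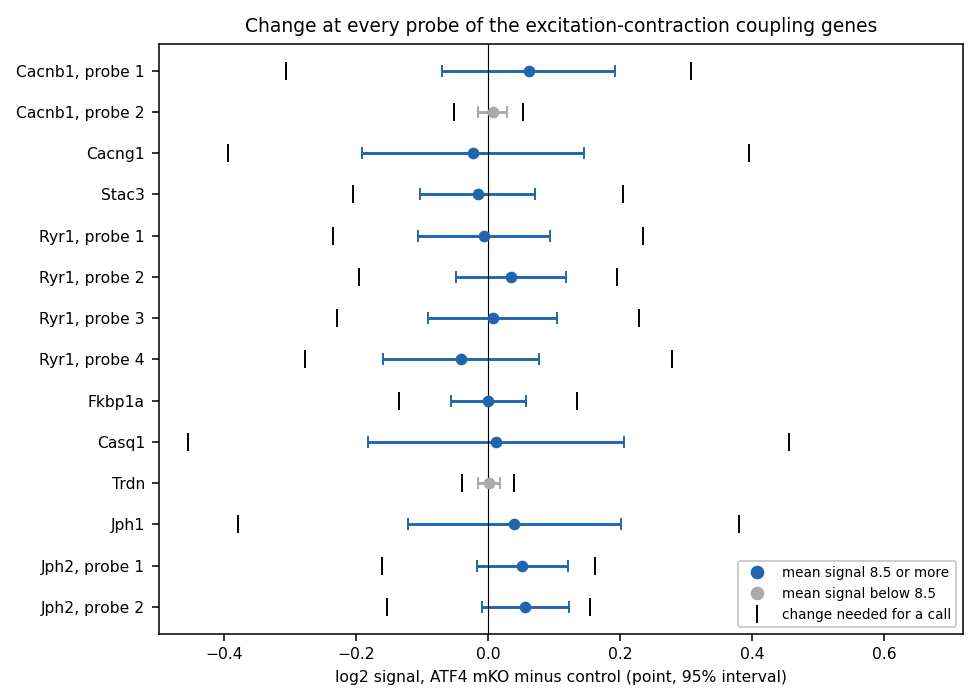
Difference in log2 signal, ATF4 mKO minus control, with its 95% interval at each of the 14 probes (blue, mean signal of 8.5 or more; grey, below). Black ticks mark the difference that a call at an adjusted p of 0.1 would have needed, from 0.135 for Fkbp1a to 0.456 for Casq1 among the blue probes, and every point lies inside its ticks.

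The sequence before the start of these genes is shown for the channel, the calsequestrin gene and the junctophilin gene nearest to a difference, beside Aars, the alanyl-tRNA synthetase gene, which fell to 10.44 ± 0.06 in ATF4 mKO mice, against 11.37 ± 0.07 in control mice (SD, n = 8 each; limma, adjusted p = 1.49e-11). Each run is the 250 bases upstream of a RefSeq start (GRCm38.p6), written on the gene's own strand. Capitals mark E-boxes (CANNTG, the motif bound by myogenic and other bHLH factors) and the composite element of C/EBP and ATF factors (TGATGNAA, or TTNCATCA on the other strand). The windows are chr7:29125152-29125401 (minus strand) for Ryr1, chr1:172219896-172220145 (minus) for Casq1, chr2:163397974-163398223 (minus) for Jph2 and chr8:111033592-111033841 (plus) for Aars.
Ryr1: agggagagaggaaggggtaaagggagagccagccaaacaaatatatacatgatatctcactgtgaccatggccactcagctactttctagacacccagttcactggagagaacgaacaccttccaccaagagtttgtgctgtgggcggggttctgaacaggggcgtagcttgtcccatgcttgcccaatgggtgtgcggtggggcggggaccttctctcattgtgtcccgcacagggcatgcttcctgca
Casq1: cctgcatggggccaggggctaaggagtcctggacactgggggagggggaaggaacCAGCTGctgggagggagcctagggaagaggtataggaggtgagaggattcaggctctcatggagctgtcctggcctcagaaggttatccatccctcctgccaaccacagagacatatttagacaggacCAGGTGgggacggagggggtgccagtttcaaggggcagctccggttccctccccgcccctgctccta
Jph2: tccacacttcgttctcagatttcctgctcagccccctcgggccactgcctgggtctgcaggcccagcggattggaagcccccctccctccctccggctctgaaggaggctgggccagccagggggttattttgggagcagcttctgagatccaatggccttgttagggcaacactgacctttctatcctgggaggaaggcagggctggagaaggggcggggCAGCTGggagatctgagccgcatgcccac
Aars: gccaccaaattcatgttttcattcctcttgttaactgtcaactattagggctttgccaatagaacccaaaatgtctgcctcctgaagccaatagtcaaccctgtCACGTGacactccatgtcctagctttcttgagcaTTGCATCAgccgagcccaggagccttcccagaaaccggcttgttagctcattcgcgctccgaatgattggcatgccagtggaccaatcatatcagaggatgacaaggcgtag
Aars holds both motifs, Casq1 and Jph2 hold E-boxes and Ryr1 holds neither. RefSeq windows were matched for 6 of the 10 genes (Cacna1s, Cacnb1, Casq1, Fkbp1a, Jph2 and Ryr1), 8 windows in all. The composite element was found in 0 of the 8, in 3 of 32 windows of genes called on these arrays (Aars, Gars and Herpud1) and in 3.45% of 32851 mouse promoters of the same length. An E-box was found in 6 of the 8 and in 66.2% of all promoters. The 8 include a second Jph2 window (chr2:163397994-163398243) that overlaps the one shown and holds the same E-box. These are letters in a window and say nothing of binding.

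Other genes of calcium handling were then examined by list, each by its brightest probe. Over 6 lists with 75 genes, 62 had a probe and 0 were called. At an unadjusted p below 0.05, 5 of the 62 passed, 4 higher and 1 lower, beside 5.76% of all 16593 genes (2.96% higher and 2.8% lower). By the methods' t-test at an unadjusted p of 0.025, 3 of the 62 and 0 of the 9 coupling genes passed, beside 2.92% of all genes. Of the 16 measured genes for proteins of the triad and store membrane, the mRNA of 11 was higher and that of 5 lower in ATF4 mKO mice, with a median difference of 0.06 beside 0.00184 over all probes of 8.5 or more.

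Cacna2d1 encodes the alpha2-delta subunit, the remaining auxiliary subunit of the voltage sensor channel. It read 11.09, 11.43 and 11.67 in ATF4 mKO mice and 11.14, 11.25 and 11.29 in control mice. Apart from ATF4 mKO mouse 3, which was the lowest of all 16, every ATF4 mKO mouse lay above every control mouse. The difference was 0.20 ± 0.06 (S.E.; 95% interval 0.07 to 0.34; limma, unadjusted p = 0.00552, adjusted p = 0.687). Without ATF4 mKO mouse 3 it was 0.25 with an adjusted p of 0.0721, past the threshold, so 1 mouse decided this call.

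Camk2g, a calcium and calmodulin-dependent kinase, read 11.01 to 11.22 in ATF4 mKO mice and 10.85 to 11.11 in control mice. The groups overlapped, with 8 of 8 ATF4 mKO mice above the control mean. The difference was 0.11 ± 0.04 (S.E.; adjusted p = 0.672), and a second probe gave 0.08. S100a1, a calcium-binding protein that interacts with the release channel, read 12.45, 12.53 and 12.57 in ATF4 mKO mice and 12.40, 12.62 and 12.87 in control mice. All 8 ATF4 mKO mice lay below the control mean, and the control mice spread more widely and included the lowest value of all. Its difference was -0.11 ± 0.05 (S.E.; adjusted p = 0.879).

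Of 10 measured genes of the tubule membrane, 6 were higher and 4 lower in ATF4 mKO mice, with a median difference of 0.000346. Dysf encodes dysferlin, a protein of membrane repair that also lies at the tubules. At its brightest probe it read 8.90, 9.09 and 9.21 in ATF4 mKO mice and 8.79, 8.88 and 8.97 in control mice. All 8 ATF4 mKO mice lay above the control mean, and the groups overlapped. ATF4 mKO mice 1 to 5 (9.08 to 9.21) lay above every control mouse, while mice 6 to 8 (8.90 to 8.96) lay within the control range. The difference was 0.18 ± 0.05 (S.E.; limma, unadjusted p = 0.00123, adjusted p = 0.409). The other Dysf probes gave 0.09 and 0.00657, the latter at the floor (8.32 to 8.39 in ATF4 mKO mice and 8.34 to 8.38 in control mice). Mtmr2, a phosphoinositide phosphatase, gave 0.05 (adjusted p = 0.855) and Popdc3, a membrane protein, 0.07 (adjusted p = 0.924).

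**Figure D3:**
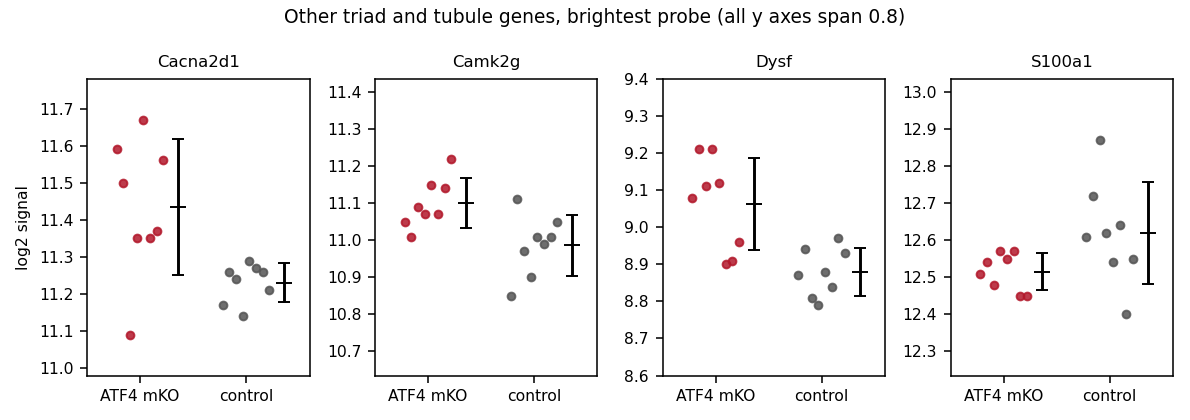
Log2 signal of each mouse for Cacna2d1, Camk2g, Dysf and S100a1, ATF4 mKO (red) left of control (grey), with the mean and SD beside each group (n = 8, all axes spanning 0.8). A single ATF4 mKO mouse, at 11.09, lies below all control mice at Cacna2d1, and the groups overlap in every panel.

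The pumps that refill the store went in both directions. Atp2a1, the pump of fast fibres, read 14.88 to 15.06 in ATF4 mKO mice and 14.89 to 15.00 in control mice, a difference of 0.04 ± 0.03 (S.E.; adjusted p = 0.924). Atp2a2, the pump of slow fibres and heart, read 11.79, 12.41 and 13.10 in ATF4 mKO mice and 12.24, 12.72 and 13.26 in control mice. Its SD, 0.45 in ATF4 mKO mice and 0.42 in control mice, was larger than that of any coupling gene, and its difference was -0.35 ± 0.20 (S.E.; adjusted p = 0.894). Sln, the pump inhibitor sarcolipin, gave -0.19 ± 0.25 (adjusted p = 0.971). Without control mice 3 and 7, the difference was -0.18 for Atp2a2 and -0.04 for Sln.

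Among 8 measured genes of surface excitability, 2 were higher and 6 lower. Atp1b1 of the sodium pump gave -0.08, Chrnb1 of the acetylcholine receptor -0.11 and Clcn1, the chloride channel of the resting fibre, 0.03, with adjusted p between 0.924 and 0.969. By the brightest probe, all 5 measured genes of store-operated calcium entry were lower by 0.00856 (Orai2, at the floor) to 0.04. Without control mice 3 and 7, 4 of 5 were lower. By that probe the nearest to a call, Orai1 (-0.04), had an adjusted p of 0.927. Over all 7 probes of the list, 1 had an unadjusted p below 0.05 (limma) and 0 were called. The 2 fainter Saraf probes had medians of 10.71 and 10.22 in ATF4 mKO mice and 10.90 and 10.29 in control mice. Without control mice 3 and 7 their differences were -0.12 and -0.02. Of 19 measured paralogs, 3 reached 8.5 (Casq2, Cacng6 and Cacnb4). The rest lay near the floor, and the 3 with the smallest p, Cacng2, Cacng3 and Jph4, gave -0.02, 0.01 and 0.02.

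**Figure D4:**
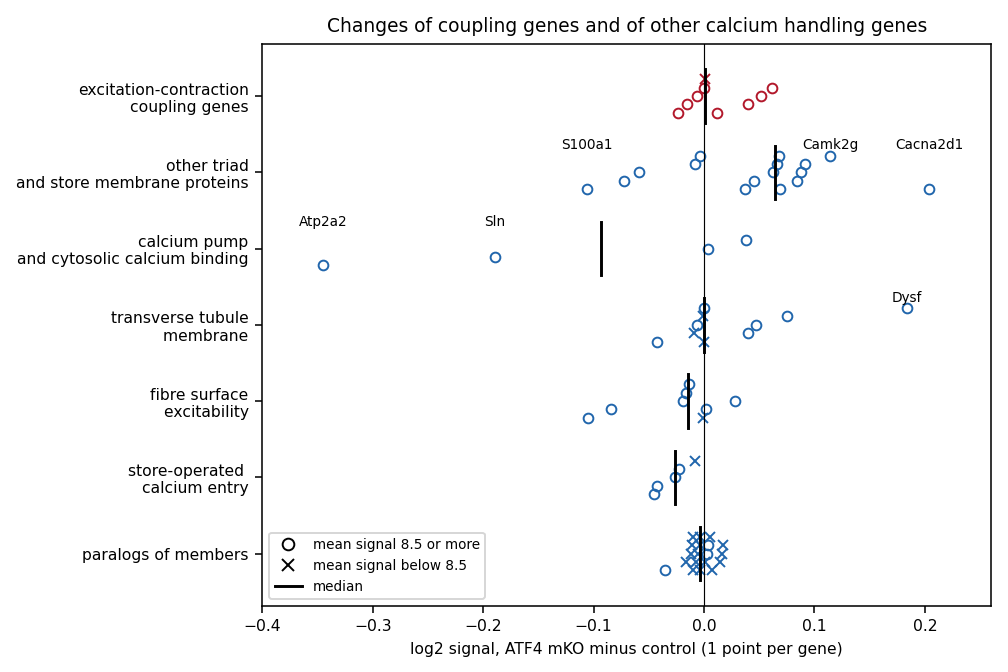
Difference in log2 signal, ATF4 mKO minus control, for the 9 coupling genes (red) and for 62 other genes of calcium handling by list (blue), 1 point per gene, circles for a mean signal of 8.5 or more and crosses below. Black bars are medians, and the points labelled at the edges, Atp2a2 (-0.35; -0.18 without control mice 3 and 7) and Cacna2d1 (0.20), were not called.

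Fibre type and other cell types were set beside these values. The 10 slow fibre contractile genes were all lower in ATF4 mKO mice, with a median difference of -0.12 (-0.08 without control mice 3 and 7) and 0 called. Their mean level was 11.43 ± 0.34 in ATF4 mKO mice (10.85 to 11.87) and 11.61 ± 0.26 in control mice (11.22 to 11.91; SD, n = 8 each). The genes were read in the same mice and are not 10 separate results. ATF4 mKO mouse 5 was the lowest of its group at Actn2 and Myoz2, and mouse 8 at Tnni1. The 7 lists of other cell types had 26 of 34 genes measured and 0 called. The widest difference was at Hba-a1, a haemoglobin gene (-0.44, adjusted p = 0.894, and -0.25 without control mice 3 and 7), where control mouse 3 was high, and the mean of the 3 measured red blood cell genes ran from 9.68 to 10.27 in ATF4 mKO mice and from 9.92 to 10.71 in control mice. The level of each coupling gene was set against the slow fibre mean within each genotype (n = 8), 18 relations in all. By the exact permutation test 0 passed at an adjusted p of 0.05 for Pearson's r. Jph2 gave r = -0.67 in ATF4 mKO mice (rho = -0.55, p = 0.0710, adjusted p = 0.404) and r = -0.79 in control mice (rho = -0.79, p = 0.0294, adjusted p = 0.265), which became -0.63 in ATF4 mKO mice and -0.52 in control mice without the 2 mice farthest from the median. By rho, 1 relation passed: Trdn, at the floor, gave r = 0.83 in control mice (p = 0.00652, adjusted p = 0.117; rho = 0.95, adjusted p = 0.0205) over values from 8.30 to 8.34, and r = 0.76 (exact permutation p = 0.0861, adjusted p = 0.711) without the 2 farthest mice.

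The 8 coupling genes above the floor were also compared with each other from mouse to mouse. In ATF4 mKO mouse 5 all 8 lay above the mean of the genotype. Of 56 relations between pairs of them within a genotype (n = 8, exact permutation test), 0 passed at an adjusted p of 0.05 and 4 had an unadjusted p below 0.05. Casq1 and Jph2 gave r = 0.90 in ATF4 mKO mice (rho = 0.88, p = 0.00340, adjusted p = 0.0951; 0.89 without the 2 farthest mice) and 0.31 in control mice. Ryr1 and Fkbp1a gave r = -0.41 in ATF4 mKO mice and 0.91 in control mice (rho = 0.90, p = 0.00260, adjusted p = 0.0951; 0.74 without the 2 farthest mice). Whether these relations differ between genotypes was not tested. Each pair used the brightest probe of each gene, and the other probes of Ryr1 and Jph2 were not tested in it. Relations between probes of Ryr1 or of Jph2 did not pass either, so these pairs describe single probes. The sign of r was the same in both genotypes for 15 of 28 pairs.

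**Figure D5:**
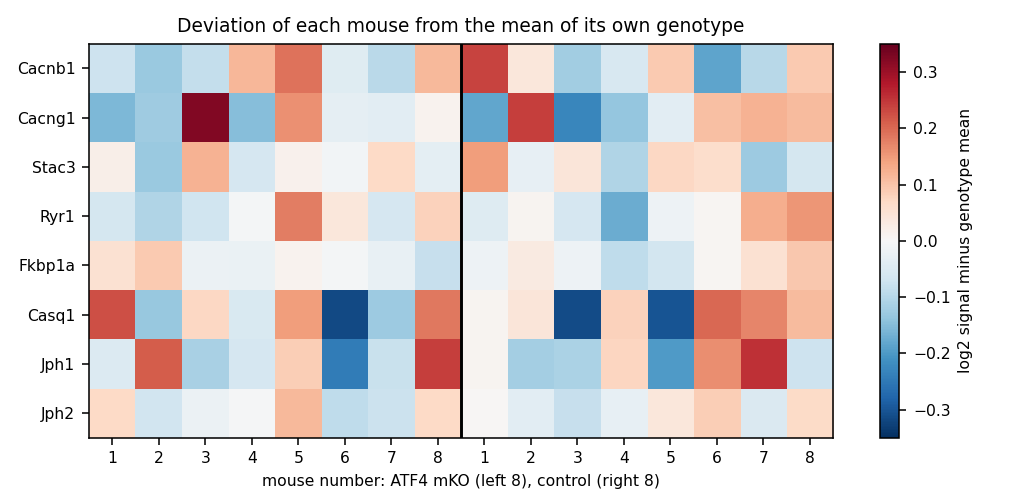
Log2 signal of each mouse minus the mean of its own genotype for the 8 coupling genes with a mean signal of 8.5 or more, ATF4 mKO mice 1 to 8 on the left and control mice 1 to 8 on the right (red above the mean, blue below). Casq1 is low in ATF4 mKO mouse 6 and control mice 3 and 5, while the rows of Fkbp1a and Jph2 are the palest.

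A mean standardised deviation of the 8 genes was computed for each mouse. It was highest in ATF4 mKO mouse 5 (1.01) and lowest in control mouse 3 (-0.82). Jph2, Casq1 and Ryr1 followed it most closely (r = 0.78, 0.75 and 0.73), as parts of it, and Stac3 least (r = 0.08). Among 6296 other genes, those whose deviations were most like it over the 16 mice were Eloa (r = 0.82), Slc25a28 (0.81), Hnrnpdl (0.80), Ift122 (0.80), Zranb1 (0.80) and Rtn2 (0.79). These r describe arrays of the same platform and carry no test. Eloa was itself called, 0.21 higher in ATF4 mKO mice (limma, adjusted p = 0.0164).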

How the data were processed

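Quadriceps RNA of 8 ATF4 mKO and 8 control mice was labelled and hybridised to Illumina Mouse Ref-8 bead arrays by a genotyping consortium and the data were extracted in BeadStudio. The authors deposited log2 signals for 25697 probes. The sources used here give no background correction, normalization or software version. No detection p-values were used, and the floor near 8.3 compresses changes of faint mRNAs. The number of arrays limits the precision. GEO's labels gave genotype and mouse number and name separate mice. Slide positions were not used here. The annotation gave 1 symbol to 23978 probes and none to 1719, and the gene identifiers of all 14 coupling gene probes matched a RefSeq table.

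Probes were compared over all 16 arrays in limma 3.58.1 under R 4.3.3 (lmFit, then eBayes, two-sided), with Benjamini-Hochberg adjustment over all probes and calls at 0.1. The methods' t-test (unadjusted p of 0.025) was an alternative. Intervals are 95% intervals from limma. A gene was read at its brightest probe. Exact permutation tests and correlations used Python 3.11.15 and SciPy 1.17.1, with adjustment within each family. A plan for 20 relations with the slow fibre list gave 18, since Cacna1s had no named probe. The scripts were tested on simulated data.

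The genes and lists were chosen with earlier results of these data known. Named were all coupling genes, Atf4, up to 3 genes of each other list with the smallest p, any called gene of a list and the 6 genes with the most similar deviations. Aars was named after its values were seen. Alternatives were quantile normalization, median centring, a filter at a mean of 8.5, weights per array, a replicate block by mouse number, a variance prior following the signal with robust estimation, another threshold, other probe choices and each array left out in turn. A fit without control mice 3 and 7 was added after the data were seen.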

Additional observations from a re-analysis of the deposited data

Results flagged for a closer look

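In 118 groups of 8 values, 10 held a mouse whose distance to its nearest neighbour was large against the range of the group (Dixon's critical value 0.526). Chance gives about 1 in 20 such groups. Among the coupling genes, ATF4 mKO mouse 1 was low at the faintest Ryr1 probe (9.46, next 9.70), and ATF4 mKO mouse 6 was high at Trdn (8.36, next 8.33), where the signal lies at the floor. Of the other genes of calcium handling, Orai2 was high in ATF4 mKO mouse 2 (8.34, next 8.32) and Orai1 in control mouse 6 (10.51, next 10.42).

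Markers of other cell types held the rest. Adgre1, a macrophage gene, was high in ATF4 mKO mouse 3 (8.57, next 8.45), and Pecam1, an endothelial gene, in ATF4 mKO mouse 7 (9.16, next 9.02). Chodl, a gene of satellite cells, was high in control mouse 1 (9.23, next 9.09). Control mouse 3 was high at Hba-a1 (14.39, next 13.29) and Alas2 (9.32, next 8.66), both genes of red blood cells, and low at Col1a2 (8.36, next 8.43). That mouse was also among the lowest at Casq1 (11.55). The part of blood in its other values was not tested.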

How the results depend on the processing

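No coupling gene was called in any fit that was run, and the lowest adjusted p of one was 0.821 (Jph2). Genes with a difference near 0 changed sign: Ryr1 (-0.00614) gave 0.0208 after quantile normalization and 0.00528 without control mice 3 and 7, Fkbp1a (0.000114) gave -0.000114 after centring and -0.00365 with array weights, and Casq1 (0.01) gave -0.00585 with array weights and -0.0118 without control mice 3 and 7. With 1 array left out, the differences ran from -0.0698 to 0.0111 for Cacng1, -0.0339 to 0.00506 for Stac3, -0.0319 to 0.0160 for Ryr1, -0.0131 to 0.0137 for Fkbp1a, -0.0330 to 0.0569 for Casq1 and -0.00383 to 0.00430 for Trdn. Those of Cacnb1 (0.0339 to 0.0950), Jph1 (0.00494 to 0.0759) and Jph2 (0.0352 to 0.0639) stayed above 0, and which gene differed most changed with the array left out. The count of calls over all probes ran from 28 to 37, and that of other calcium handling genes from 0 to 1 (Cacna2d1 without ATF4 mKO mouse 3).

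The methods' t-test at an unadjusted p of 0.025 called 733 probes (2.85%) and 2.92% of all 16593 genes by their brightest probe, against 3 of 62 other calcium handling genes (Cacna2d1, Camk2g and Dysf) and 0 of 9 coupling genes. With mouse number as a replicate block, 16 probes were called in place of 35 and 0 of the coupling genes. The deviations of same-numbered mice had a correlation over 0.1 in 2 of 8 pairs (from -0.232 to 0.247 over all pairs). Of the 8 ATF4 mKO mice, 1 correlated best with its own number. Deviations over whole arrays cannot show whether same-numbered mice shared a litter or a slide, and this was not tested. Trdn and the fainter Cacnb1 probe lie at the floor, which limits what any setting could show.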
